A study of Mus musculus with 8 samples.

Results

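The 8 libraries of the series were divided into 4 with a lower and 4 with a higher share of counts in long noncoding RNA (lncRNA) genes, and the gene classes that moved with this division are described here. The lower-share libraries were wildtype libraries 1, 3 and 4 and library 4 labelled knockout, and the higher-share libraries were wildtype library 2 and libraries 1, 2 and 3 labelled knockout, so all 8 of the 8 libraries belong to one set or the other and both sets hold both genotypes. Each library is total RNA of mouse organ of Corti, which carries the hair cells and supporting cells of hearing, taken on the day of birth (P0), sequenced after depletion of ribosomal RNA. The 4 wildtype libraries carry no named allele. The 4 libraries labelled knockout come from mice in which the recombinase Cre, expressed under Emx2, acts on a floxed Prox1 gene, so that loss is limited to cells with Emx2-driven Cre and their descendants. No treatment is named for either genotype, and the labels do not say how many animals entered a library, so the p-values below rest on a spread between samples that may be technical.

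The sets were selected on a measured value, the lncRNA share of these same libraries. Differences between them are therefore descriptions without a test, and tests are given for the genotype labels alone. In bulk tissue, fewer cells of a type and less RNA per cell cannot be told apart. All differences between sets are the mean log2 CPM (counts scaled to the size of each library) of the 4 higher-share libraries minus that of the 4 lower-share libraries, per gene, and a class is described by the median over its genes that passed the low-count filter (20581 of 41079 genes).

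Long noncoding RNAs are transcripts without a long reading frame, and many are kept in the nucleus, where Malat1 sits in splicing speckles and imprinted RNAs such as Kcnq1ot1 act at their own locus. A library made from ribosome-depleted total RNA holds these transcripts together with unspliced precursor RNA, intron-derived small nucleolar and microRNA precursors, histone messages without a poly(A) tail, and small RNA polymerase III products such as the 7SL RNA of the signal recognition particle. The proportions of nuclear and cytoplasmic RNA in such a library are part of what its counts measure, beside the levels of single genes.

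The libraries held between 29908965 and 42318233 counts, and no pair of libraries of the same genotype label agreed within sampling noise (chi-square over genes at least 10.7 per degree of freedom). Prox1, the targeted gene, had 109, 114, 106 and 115 CPM in wildtype libraries 1 to 4 and 147, 137, 138 and 133 CPM in libraries 1 to 4 labelled knockout, which goes against the label, so genotypes are named below as labelled. Prox1 differed little within a genotype along the lncRNA share: wildtype library 2 was above the other wildtype libraries by 0.05 and libraries 1 to 3 labelled knockout above library 4 by 0.07 on the log2 CPM scale. Organ of Corti markers were present in all libraries, with 240 to 274 CPM of the hair cell myosin gene Myo6 and 5358 to 6097 CPM of the tectorial membrane gene Tecta.

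RefSeq lncRNA genes (11856 genes) took 1.67% of the counts of wildtype library 3, 1.99% of wildtype library 1, 2.03% of library 4 labelled knockout and 2.36% of wildtype library 4. They took 2.51% of the counts of library 1 labelled knockout, 2.61% of wildtype library 2, 2.77% of library 2 labelled knockout and 2.97% of library 3 labelled knockout. The last of the lower set and the first of the higher set were 0.150 percentage points apart, while neighbours inside the lower set were up to 0.324 points apart, so the libraries form a graded series rather than 2 separate clusters. The set means were 2.01% and 2.71%. By genotype label the wildtype share was 2.16 ± 0.412% and that of the knockout label 2.57 ± 0.404% (SD, n = 4 libraries each), a difference of 0.414 points that was within the spread between libraries (two-sided exact permutation test, p = 0.2, smallest possible p = 0.0286 over 70 assignments). The difference was 0.251 points without wildtype library 3 and 0.260 points without the 10 most abundant lncRNAs. With GENCODE lncRNA types added it was 0.960 points (two-sided exact permutation test, p = 0.0571). Most of the counts added there are those of 1 gene, Gm26917, at 4.54, 4.10, 4.88 and 4.04% in wildtype libraries 1 to 4. It took 5.32, 4.99, 4.82 and 4.58% in libraries 1 to 4 labelled knockout, so the rise to 0.960 points rests largely on Gm26917.

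**Figure D1:**
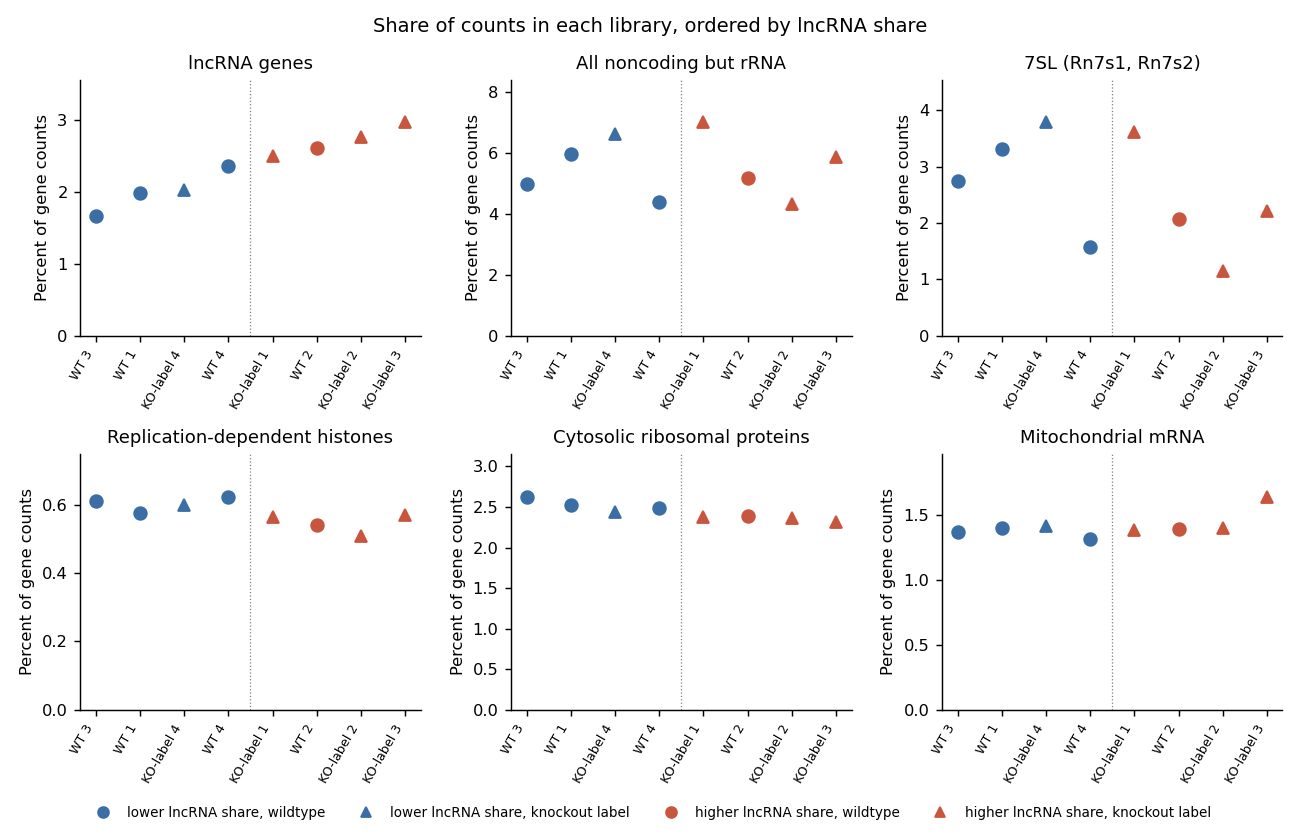
Percent of all gene counts (y axis, from 0) taken by 6 groups of genes in the 8 libraries, ordered along the x axis by lncRNA share; points are single libraries, circles wildtype and triangles the knockout label, blue the lower and red the higher lncRNA share set, with a dotted line between them. The lncRNA share climbs from 1.67 to 2.97% without a wide gap, histone and ribosomal protein shares are lower in every higher-share library, and the 7SL share follows another order.

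The order held for lncRNAs and not for noncoding RNA as a whole. All noncoding RNA genes other than ribosomal RNA took 4.38 to 6.62% of counts in the lower-share libraries and 4.33 to 7.01% in the higher-share libraries, ranges that overlap almost fully. The libraries were ordered differently there by abundant RNA polymerase III products: the 2 near-identical 7SL genes Rn7s1 and Rn7s2, whose reads cannot be split with certainty between the copies, together took 3.31, 2.06, 2.74 and 1.57% of counts in wildtype libraries 1 to 4 and 3.61, 1.15, 2.22 and 3.78% in libraries 1 to 4 labelled knockout. The highest of these shares was 3.28 times the lowest. Rpph1, the RNA of ribonuclease P, ranged over 4.04-fold, Rmrp, the RNA of ribonuclease MRP, over 2.47-fold and Rn7sk, which restrains the transcription elongation factor P-TEFb, over 2.13-fold in share of counts. Rn7s1, Rn7s2, Rpph1 and Rn7sk were all highest in libraries 1 and 4 labelled knockout and all lowest in library 2 labelled knockout, and each set holds libraries from both ends of this order. The sets are therefore named below by lncRNA share alone.

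Over all tested genes, 1682 were higher in every higher-share library than in every lower-share library, which is 8.17%, and 1935 were lower, which is 9.4%; nothing is read from these counts, since the rule used the same contrast. The median over all genes was 0.01. With library sizes taken from protein-coding genes alone the numbers without overlap were 2146 higher and 1367 lower (61.1% higher, against 46.5% in the main scaling), and with upper quartile scaling 2045 and 1500 (57.7% higher). Under these scalings the median of all genes was 0.04 and 0.03.

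Among 3550 tested lncRNAs, 2930 had a positive difference and the median was 0.33. Without overlap 610 were higher and 23 lower (17.2% and 0.648%, against 8.17% and 9.4% of all tested genes). Within wildtype the median was 0.26 (library 2 against libraries 1, 3 and 4) and within the knockout label 0.28 (libraries 1, 2 and 3 against library 4). Both contrasts follow the lncRNA share by the rule, so a positive lncRNA median is partly built into them. Among 15170 protein-coding genes the median was -0.03, with 816 higher (5.38%) and 1874 lower (12.4%) without overlap. The protein-coding median was 0.00061 when protein-coding genes alone set the scale, so its sign depends on the scaling, while the lncRNA median was then 0.36.

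Malat1, the most abundant lncRNA, had 4217, 5000, 3072 and 4798 CPM in wildtype libraries 1 to 4 and 5218, 5903, 6401 and 4194 CPM in libraries 1 to 4 labelled knockout. All higher-share libraries lay above all lower-share libraries, a difference of 0.48. Malat1 alone accounted for 0.173 of the 0.692 percentage points by which tested lncRNAs differed between the sets, the 10 most abundant lncRNAs for 0.290 points and the other 3540 for 0.402 points (58.1%). The difference in share was therefore not that of Malat1 or of the 10 most abundant lncRNAs alone. How the 0.402 points were spread over the other 3540 by abundance was not examined.

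Kcnq1ot1, the antisense transcript that silences genes of its imprinted domain in cis, had 286, 471, 258 and 399 CPM in wildtype libraries 1 to 4 and 408, 504, 512 and 329 CPM in libraries 1 to 4 labelled knockout, again without overlap, a difference of 0.59. Kcnq1, the potassium channel gene within whose span it lies, differed by -0.48, and was lower without overlap. Gm33649, an uncharacterised lncRNA inside the cation channel gene Trpm3, had 489, 875, 388 and 672 CPM in wildtype libraries 1 to 4 and 882, 908, 1093 and 596 CPM in libraries 1 to 4 labelled knockout (difference 0.83), while Trpm3 differed by 0.17 with overlapping sets. Gm42339, which overlaps no other gene, differed by 0.81.

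Not every abundant lncRNA followed the share. Norad, a mostly cytoplasmic lncRNA that binds Pumilio proteins, had 635, 528, 614 and 577 CPM in wildtype libraries 1 to 4 and 544, 526, 513 and 604 CPM in libraries 1 to 4 labelled knockout. All higher-share libraries lay below all lower-share libraries, a difference of -0.20. H19, an abundant imprinted lncRNA that also occurs in the cytoplasm, differed by -0.04 and Tug1 by -0.07, both with overlapping sets. Xist, which coats the inactive X chromosome, differed by 0.21 and Gm33272 by 0.46, also with overlapping sets.

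Of 30 lncRNAs listed as nuclear or regulatory, 26 were tested, 21 had a positive difference and the median was 0.30. Without overlap 7 were higher (26.9%, against 17.2% of all tested lncRNAs) and 1 lower (Norad). Miat, a neuronal lncRNA of nuclear foci, showed a wide separation among the listed members, from 20.7 to 41.4 CPM in the lower-share libraries to between 52.1 and 67.4 CPM in the higher-share libraries (difference 0.99). Meg3, an imprinted lncRNA, differed by 0.55, Firre, a nuclear lncRNA encoded on the X chromosome, by 0.45 and Mir99ahg, a host of microRNA genes, by 0.65, each without overlap. Neat1, the scaffold of paraspeckles, had 9.43 to 13.8 CPM in the lower-share and 12.2 to 14.8 CPM in the higher-share libraries, which overlap (difference 0.25). Miat, Meg3, Mir99ahg and Neat1 were picked from the list after their values were seen.

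**Figure D2:**
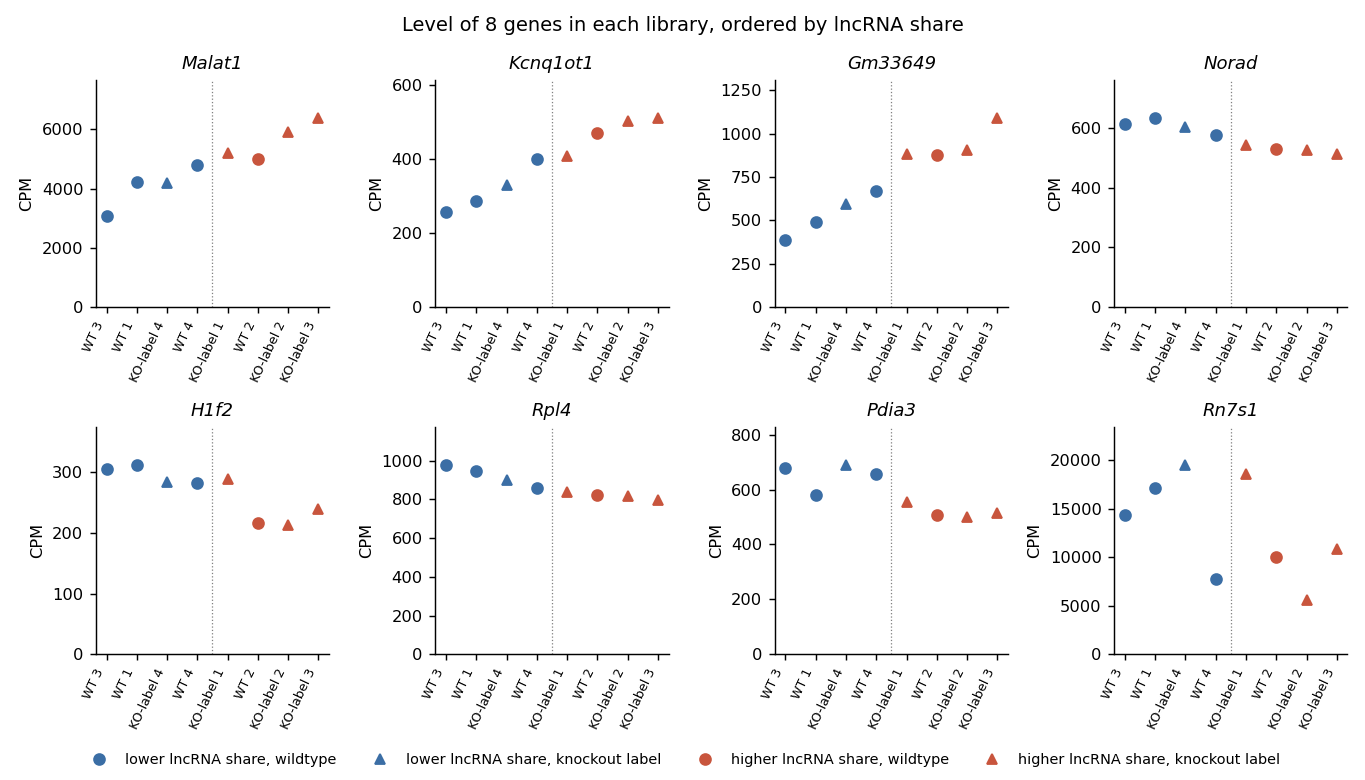
Level in CPM (y axis, from 0) of 8 genes in the 8 libraries, ordered along the x axis by lncRNA share; each point is 1 library, with circles for wildtype, triangles for the knockout label, blue for the lower and red for the higher share set. Malat1, Kcnq1ot1 and Gm33649 are higher and Norad, Rpl4 and Pdia3 lower in every higher-share library, H1f2 overlaps between the sets, and Rn7s1 follows a different order.

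The position of a lncRNA relative to other genes divided the class further, a grouping chosen after the class medians were seen. Of the tested lncRNAs, 1557 lay wholly inside the span of a protein-coding gene in the RefSeq annotation of GRCm38.p6. Their median difference was 0.46, with 1459 above 0. Without overlap 416 were higher (26.7%, against 17.2% of all tested lncRNAs and 8.17% of all tested genes) and 0 lower. The 776 lncRNAs that overlapped a protein-coding gene in part, or spanned one, had a median of 0.25, and the 909 that overlapped no other gene had a median of 0.18, with 72 higher (7.92%, near the 8.17% of all tested genes) and 15 lower without overlap. The 308 that overlapped other genes alone, Malat1 and H19 among them, had a median of 0.17. Within wildtype the medians were 0.40 inside protein-coding genes and 0.15 without overlap with any gene, and within the knockout label 0.42 and 0.12. LncRNAs inside protein-coding genes had the larger median in both of these contrasts. Each contrast sets a single library against the others of its genotype and follows the lncRNA share by which the sets were chosen. The 2 contrasts are therefore not independent of the rule.

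The 1183 tested protein-coding genes that hold these lncRNAs had a median difference of -0.02, and 502 of them were above 0. In 1540 pairs with both genes tested, the lncRNA had the larger difference in 1442 (93.6%), and the median of lncRNA minus host was 0.48. A host with several lncRNAs enters several pairs. The sets were selected by lncRNA counts and not by counts of the hosts, so a larger difference in the lncRNA is partly built into the comparison. Gm52529 inside the sodium-calcium exchanger gene Slc24a3 differed by 0.94 and Slc24a3 by 0.00. Gm52669 inside the phosphodiesterase gene Pde4b differed by 0.93 and Pde4b by 0.01. Gm19417 inside the transcription factor gene Nfia differed by 0.57 and Nfia by -0.17. The strand setting of the counts is not given in the sources used here, so reads of such a lncRNA cannot be told apart from reads of unspliced host RNA.

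**Figure D3:**
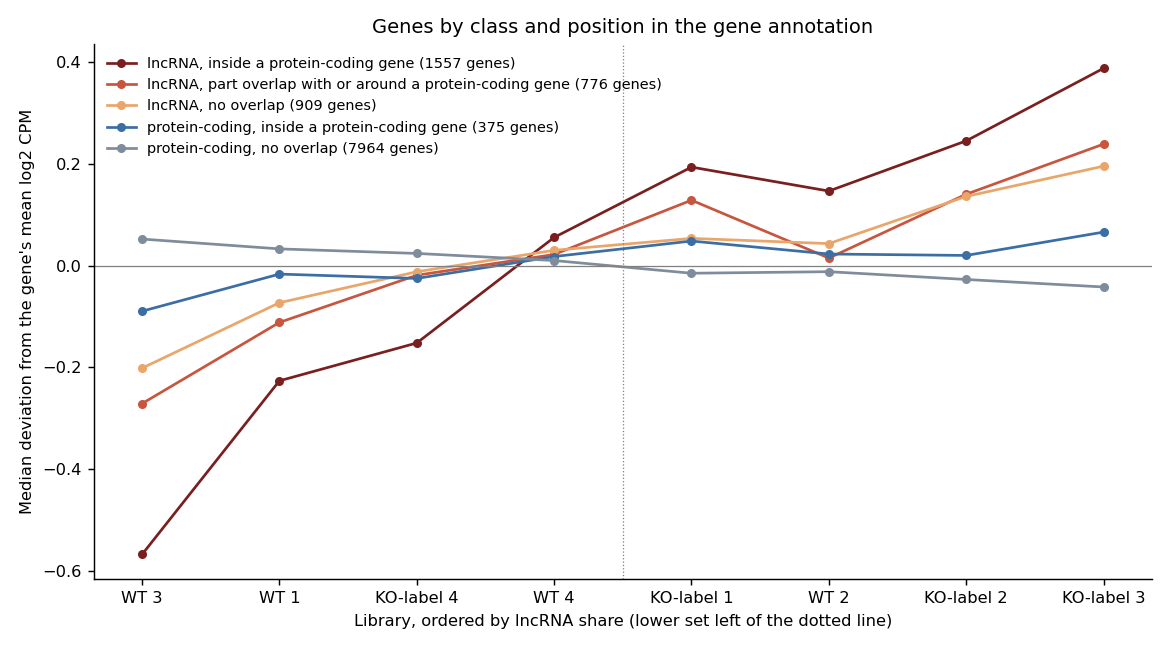
Median over genes of the deviation from each gene's own mean log2 CPM (y axis) in the 8 libraries, ordered along the x axis by lncRNA share, for 3 positions of lncRNA genes and 2 of protein-coding genes. LncRNAs inside a protein-coding gene run from -0.57 in wildtype library 3 to 0.39 in library 3 labelled knockout, lncRNAs without overlap from -0.20 to 0.20, and protein-coding genes without overlap from 0.05 to -0.04.

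The lncRNAs inside protein-coding genes took 0.689, 1.05, 0.549 and 0.925% of counts in wildtype libraries 1 to 4 and 0.997, 1.12, 1.23 and 0.748% in libraries 1 to 4 labelled knockout, 0.370 points of the difference between the sets. Those without overlap took 0.246 to 0.317% in the lower-share and 0.331 to 0.366% in the higher-share libraries, which still do not overlap. The excess of lncRNAs was present at every expression level. In genes with an average log2 CPM below 0 the median was 0.27 for 1593 lncRNAs and 0.01 for 1163 protein-coding genes, and at 4 and above it was 0.48 for 178 lncRNAs and -0.05 for 8915 protein-coding genes. For lncRNAs inside protein-coding genes the medians were 0.40 below 0 and 0.59 at 4 and above, and for those without overlap with another gene 0.18 and 0.10.

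Protein-coding genes showed a smaller difference of the same order by position. The 375 that lay inside the span of a longer protein-coding gene had a median of 0.08, with 43 higher (11.5%) and 26 lower (6.93%) without overlap. The 7964 without overlap with any gene had a median of -0.05, with 330 higher (4.14%) and 1079 lower (13.5%). Of all tested protein-coding genes 5.38% were higher and 12.4% lower. Gpr82, an orphan receptor gene inside the scaffold gene Cask, had 11.9 to 16.6 CPM in the lower-share and 19.3 to 22.7 CPM in the higher-share libraries (difference 0.65), and Cask differed by -0.09. Tex47, a testis-expressed gene inside Zfp804b, had 6.59 to 11.0 CPM in the lower-share and 17.0 to 19.7 CPM in the higher-share libraries (difference 1.03), and Zfp804b differed by 0.31. These were 2 of the 12 named protein-coding genes with the largest positive differences, and 0 of the 12 named on the lower side lay inside another gene.

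Small RNA precursor genes also had positive medians. The 123 tested small nucleolar RNA (snoRNA) genes, which guide the modification of ribosomal RNA and mostly lie in introns, had a median of 0.29 (0.19 without wildtype library 3), with 101 above 0. Of them 10 were higher without overlap (8.13%, close to the 8.17% of all tested genes) and 1 was lower. The 103 of them inside a protein-coding gene had a median of 0.28, and the 84 tested genes that hold these had a median of -0.06. The 76 tested microRNA genes had a median of 0.39, with 67 above 0, and 13 higher (17.1%, against 8.17% of all tested genes) and 0 lower without overlap. This median was 0.23 without wildtype library 3 and 0.19 without a low-count filter. Their levels were low: the 3 highest were Mir682 (8.20 to 12.2 CPM), Mir703 (2.84 to 4.68 CPM) and Mir99a (1.71 to 4.43 CPM), with differences of -0.26, -0.02 and 0.60. Total RNA counts over such a gene do not measure the mature microRNA, and when 50 counts were required in 4 or more libraries the microRNA median was -0.03. The 3 most abundant snoRNA genes, Snora73b, AF357359 and Snora73a, differed by 0.03, 0.36 and -0.03, all with overlapping sets. Small nuclear RNA genes (80 tested) had a median of 0.22, but -0.05 within the knockout label. Host genes of snoRNAs (19 tested) had a median of 0.05, and among them Snhg11 differed by 0.92 without overlap, Gas5 by 0.33 and Zfas1 by 0.00 with overlap.

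Gene models without a RefSeq match (1199 tested) had a median of 0.23. Without overlap 196 were higher and 27 lower (16.3% and 2.25%, against 8.17% and 9.4% of all tested genes). The most abundant of them, Gm26917, alone took 4.04 to 4.88% of counts in the lower-share and 4.10 to 5.32% in the higher-share libraries, which overlap. Without it the unmatched models took 1.35 to 1.55% and 1.56 to 1.66%. Pseudogenes differed little, with a median of 0.09 for 204 transcribed pseudogenes and 0.05 for 90 others. The 13 mitochondrial messenger RNAs, transcribed from the organelle's own genome, had a median of 0.06 and 0 members without overlap.

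Messenger RNAs of abundant housekeeping machinery lay on the other side. Replication-dependent histone genes package newly made DNA, and their messages end in a stem-loop in place of a poly(A) tail. Of 65 tested, 64 had a negative difference, with a median of -0.18 (-0.20 within wildtype and -0.18 within the knockout label). Of these genes 9 were lower without overlap (13.8%, near the 12.4% of all tested protein-coding genes). Their summed share of counts was 0.574 to 0.624% in the lower-share and 0.508 to 0.569% in the higher-share libraries. The most abundant members were the linker histone genes H1f4 and H1f2 and the core histone gene H2ac18, whose 3′ stem-loops are shown because they are the feature that sets these messages apart from other messenger RNA. The sequences are from GENCODE M21 transcripts (GRCm38), 5′ to 3′ on the strand of the gene, each in the 3′ untranslated region, with the 16 bases of the stem-loop in capitals; H1f4 lies at chr13:23621777-23621802 (minus strand), H1f2 at chr13:23739507-23739532 (plus strand) and H2ac18 at chr3:96246027-96246052 (plus strand).
H1f4: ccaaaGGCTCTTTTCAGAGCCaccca
H1f2: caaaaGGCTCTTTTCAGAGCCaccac
H2ac18: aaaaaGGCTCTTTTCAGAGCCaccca

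H1f4 had 484, 336, 495 and 455 CPM in wildtype libraries 1 to 4 and 458, 346, 426 and 449 CPM in libraries 1 to 4 labelled knockout (difference -0.28), H1f2 differed by -0.32 and H2ac18 by -0.21. All 3 overlapped between the sets, library 1 labelled knockout being the higher-share library that reached into the lower set for H1f4 and H1f2 and wildtype library 2 for H2ac18. A stem-loop with 6 paired bases was found in a GENCODE transcript of 41 of 61 matched replication-dependent histone genes, whose median difference was -0.18. It was not found in the other 20, whose median was -0.21. A stem with a mismatch, or a transcript model that ends before the stem-loop, counts as not found. These 20 genes may therefore still carry a stem-loop. The same search pattern, in which some stem bases and all loop bases may vary, was met in 85 of 14740 other tested protein-coding genes (0.577%). A match anywhere in a transcript counted. Replication-independent histone genes, whose messages carry a poly(A) tail, had a median of -0.13 (10 tested, 8 below 0), and the stem-loop was found in 0 of them. Of these, H3f3a, encoding a histone H3.3, differed by -0.16 without overlap, and H3f3b and H1f0 by -0.33 and -0.28 with overlap. A negative difference was thus seen in histone genes of both kinds. Histone genes have near-identical copies, so the levels of single members are less certain than those of the class.

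Cytosolic ribosomal protein genes (85 tested) had 79 members below 0 and a median of -0.13. Without overlap 24 were lower (28.2%, against 12.4% of protein-coding genes) and 0 higher. Rpl4, of the large ribosomal subunit, had 945, 821, 979 and 857 CPM in wildtype libraries 1 to 4 and 840, 819, 795 and 903 CPM in libraries 1 to 4 labelled knockout (difference -0.17, without overlap). Rplp0 and Rpsa differed by -0.28 and -0.17 with overlap. Translation factor genes (61 tested) had a median of -0.09 with 11 lower (18.0%, against 12.4% of protein-coding genes) and 1 higher without overlap. The elongation factor gene Eef1a1 had 7445 to 8483 CPM in the lower-share and 6697 to 7325 CPM in the higher-share libraries (difference -0.18). Mitochondrial ribosomal protein genes (78 tested) had a median of -0.06.

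Nuclear genes of oxidative phosphorylation (87 tested) had a median of -0.13, with 79 below 0. Without overlap 27 were lower (31.0%, against 12.4% of protein-coding genes) and 0 higher. Cox4i1, a subunit of cytochrome c oxidase, had 140 to 152 CPM in the lower-share and 121 to 133 CPM in the higher-share libraries. Proteasome subunit genes (38 tested) were all below 0, with a median of -0.11 and 13 lower without overlap (34.2%, against 12.4%). Genes of the endoplasmic reticulum and secretory machinery (33 tested) had 32 members below 0 and a median of -0.18. Without overlap 14 were lower (42.4%, against 12.4%) and 1 higher (3.03%, against 5.38% of protein-coding genes). Pdia3, a disulfide isomerase of glycoprotein folding, had 582, 507, 680 and 657 CPM in wildtype libraries 1 to 4 and 555, 500, 516 and 690 CPM in libraries 1 to 4 labelled knockout (difference -0.33, without overlap), and the chaperone genes Calr and Hsp90b1 differed by -0.29 and -0.26 with overlap. Collagen and matrix genes (28 tested) had a median of -0.17 with 26 below 0, and of -0.16 between the genotype labels. The median between the sets was -0.12 without wildtype library 1 and -0.09 without wildtype libraries 1 and 3. As the mean of both within-genotype differences it was -0.11. Glycolysis and hypoxia genes (26 tested) had a median of -0.12 with 20 below 0.

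Speckle, zinc finger, chromatin and clustered protocadherin genes had positive medians. Genes of SR and speckle proteins, which regulate splicing, had 25 of 36 tested members above 0 and a median of 0.13. Without overlap 13 were higher (36.1%, against 5.38% of protein-coding genes) and 0 lower. Ddx17, an RNA helicase, had 553, 639, 536 and 608 CPM in wildtype libraries 1 to 4 and 632, 684, 676 and 582 CPM in libraries 1 to 4 labelled knockout (difference 0.21). Chosen after their values were seen, the splicing regulator genes Rbm5, Luc7l3, Clk1 and Srsf11 differed by 0.39, 0.36, 0.33 and 0.29, each without overlap, while Srrm2, a core speckle protein gene, differed by 0.02 with overlap. Zinc finger genes (388 tested) had a median of 0.07 with 275 above 0 and 35 higher (9.02%, near the 8.17% of all tested genes) and 11 lower without overlap, and chromatin remodeller and histone methyltransferase genes (36 tested) a median of 0.07 with 29 above 0. Kmt2d, a histone H3 methyltransferase gene, differed by 0.18 without overlap. Clustered protocadherin genes (54 tested) had a median of 0.07 with 2 higher and 2 lower without overlap, which is below the background of all genes in both directions, and heterogeneous nuclear ribonucleoprotein genes (20 tested) a median of -0.05.

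**Figure D4:**
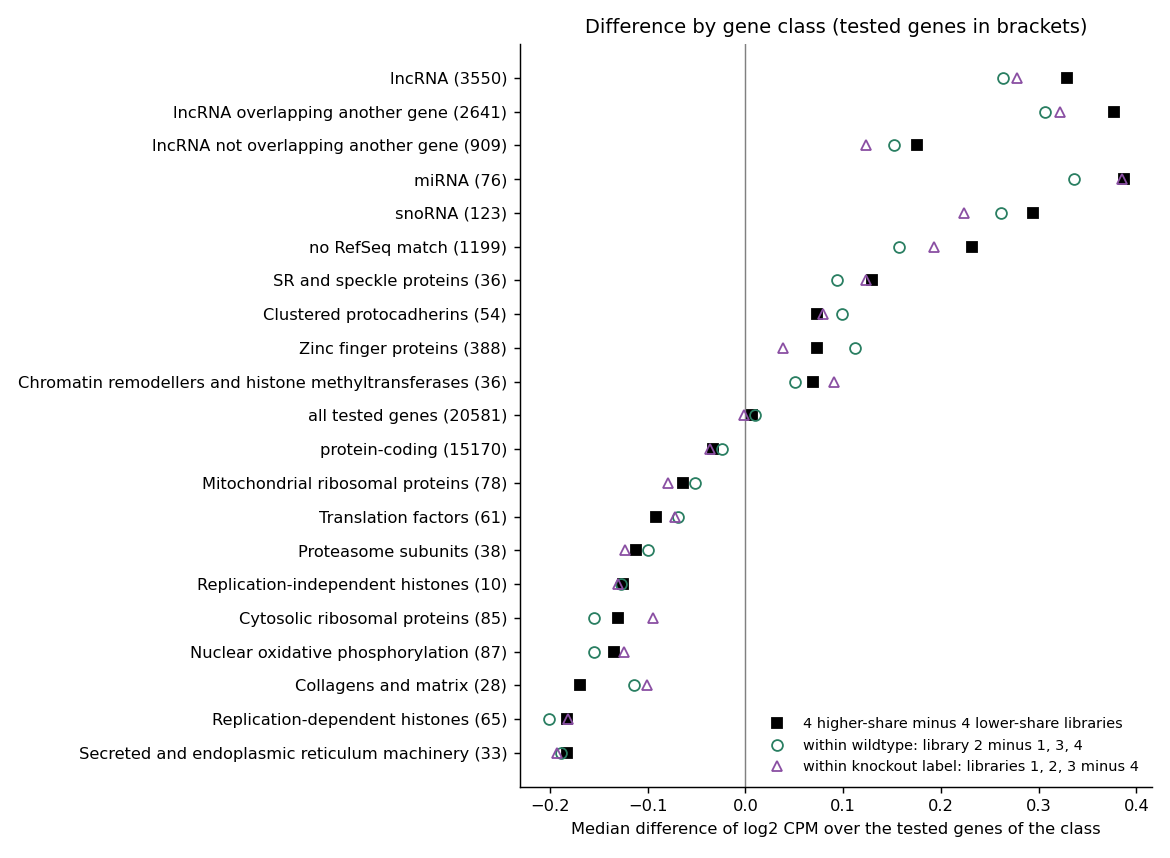
Median difference of log2 CPM (x axis) for 21 gene classes and lists; black squares compare the 4 higher-share with the 4 lower-share libraries, open circles wildtype library 2 with wildtype libraries 1, 3 and 4, and open triangles libraries 1, 2 and 3 labelled knockout with library 4. The 3 values have the same sign in each class drawn except all tested genes, from 0.39 in microRNA genes to -0.18 in secretory machinery genes. The classes drawn are a selection, and in some not drawn the sign differed between genotypes. Examples are small nuclear RNA genes (0.14 within wildtype, -0.05 within the knockout label), cartilage and bone genes (0.04, -0.21) and endothelial genes (-0.03, 0.13).

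Among protein-coding genes the difference also moved with exonic length, the bases covered by the exons of all transcripts of a gene together. This can exceed the length of any single transcript. In the shortest decile of exonic length (median 1353 bases) the median difference was -0.08, with 1.76% of genes higher and 15.1% lower without overlap. In the longest decile (median 12523 bases) it was 0.02, with 13.2% higher and 7.39% lower. The within-wildtype medians ran from -0.11 to 0.04 and those within the knockout label from -0.08 to 0.02 between these deciles, and Spearman's rho across 14744 genes, which are not independent replicates and share these libraries, was 0.183. Intronic length gave a rho of 0.0871 and medians from -0.07 to 0.00. GC content gave a rho of -0.0739, and its trend ran opposite ways in the 2 genotypes: from the lowest to the highest decile of GC content the median went from 0.05 to -0.06 within wildtype and from -0.06 to 0.00 within the knockout label. Exonic length kept its order within each of 3 classes of GC content, with medians of -0.06, -0.08 and -0.08 in the short genes and 0.01, -0.01 and 0.00 in the long genes. The parts of length and GC content in the class differences were not tested.

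**Figure D5:**
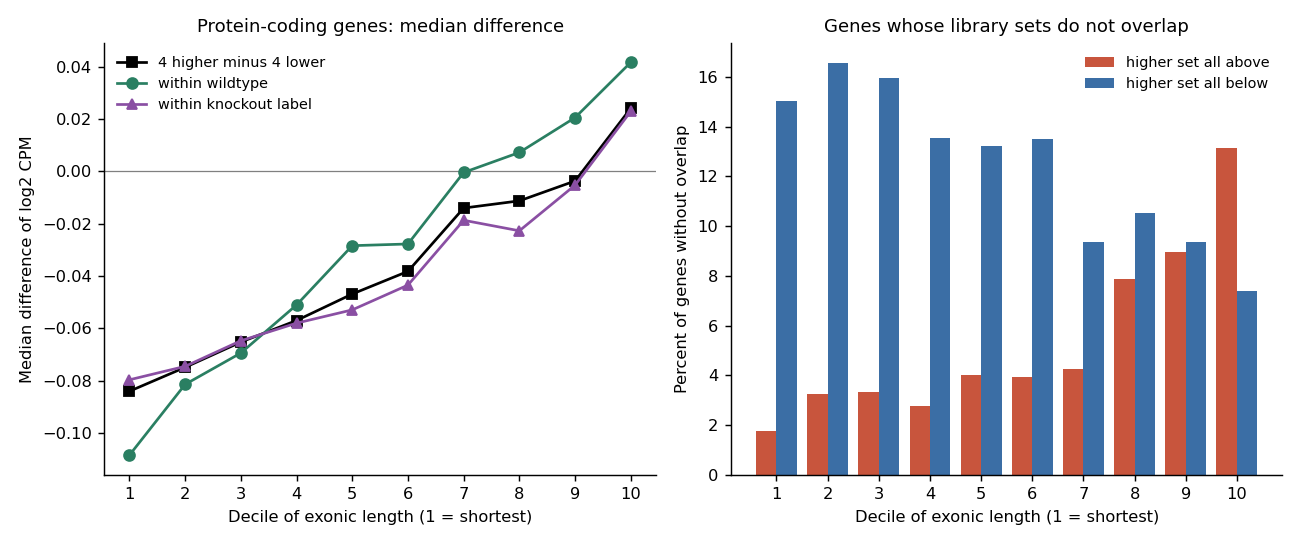
Protein-coding genes in 10 groups of equal size by exonic length (x axis, 1 the shortest); the left panel gives the median difference of log2 CPM for the set comparison and within each genotype, the right panel the percent of genes whose sets do not overlap. The median climbs from -0.08 to 0.02, and the share of genes lower without overlap goes from 15.1 to 7.39% while the share higher goes from 1.76 to 13.2%.

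The protein-coding genes with the largest differences, with at least 3 average log2 CPM, no overlap and the same sign in both genotypes, came from 629 eligible on the higher and 1654 on the lower side. On the higher side, after Tex47, came Pkd1l1, a polycystin gene, with 6.10, 12.3, 5.97 and 6.90 CPM in wildtype libraries 1 to 4 and 12.8, 15.96, 13.9 and 8.48 CPM in libraries 1 to 4 labelled knockout (difference 1.00). The imprinted retrotransposon-derived gene Rtl1 differed by 0.66, the ciliary gene Cfap44 by 0.64, Zfp966 by 0.62, Ypel4 by 0.58, Catspere2 by 0.57, the synaptic scaffold gene Lrrc7 and the DNA repair gene Apex2 by 0.56 each, Vwa5b2 by 0.55 and Fam186b by 0.54. The levels of these genes were modest, from 5.15 CPM in Cfap44 to 45.0 CPM in Apex2.

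On the lower side Fcrlb, an Fc receptor-like gene, had 48.2, 34.9, 47.4 and 67.5 CPM in wildtype libraries 1 to 4 and 23.3, 29.6, 31.8 and 52.1 CPM in libraries 1 to 4 labelled knockout (difference -0.85). Cldn11, the claudin of stria vascularis basal cells and of myelin, had 46.5 to 52.9 CPM in the wildtype lower-share libraries and 41.1 CPM in library 4 labelled knockout, against 26.5 to 32.8 CPM in the higher-share libraries (difference -0.75). S100b, a calcium-binding protein gene of supporting cells and glia, had 76.6 to 79.5 CPM in the lower-share and 49.9 to 59.6 CPM in the higher-share libraries (difference -0.54). The calcium pump gene Atp2a3 differed by -0.72, the ribonuclease gene Rnase4 by -0.68, the prostaglandin D synthase gene Ptgds by -0.65, Pkhd1l1, a stereocilia coat gene, by -0.64, Strip2 by -0.57, the atypical cadherin gene Fat2, the calcification inhibitor gene Mgp and Ccdc3 by -0.56 each and the lipase gene Pla2g7 by -0.54.

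Cell type marker lists moved less evenly than the RNA classes. Hair cell genes had 20 of 29 members below 0 and a median of -0.13. Without overlap 8 were lower and 3 higher (27.6% and 10.3%, against 12.4% and 5.38% of protein-coding genes). The summed level of hair cell genes was 1161 to 1264 CPM in the lower-share and 1071 to 1165 CPM in the higher-share libraries, which overlap. Otof, the calcium sensor of the hair cell synapse and 1 of the 8 lower members, had 109 to 139 CPM in the lower-share libraries. It had 92.5 to 102 CPM in the higher-share libraries. Pillar and Deiters cell genes (24 tested) had a median of -0.03. Greater epithelial ridge and tectorial membrane genes (17 tested) had a median of -0.17, with 14 below 0 and 3 above. Of these genes 6 were lower (35.3%, against 12.4% of protein-coding genes) and 0 higher without overlap. The tectorial membrane gene Tectb (difference -0.28) was among the 6. Periotic mesenchyme genes (20 tested) had a median of -0.17 and a summed level of 7679 to 9134 CPM against 6555 to 7803 CPM.

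Marginal cell genes of the stria vascularis (14 tested) had a median of -0.36, but of -0.01 within the knockout label and -0.37 between the genotype labels. It was -0.14 without wildtype library 1, -0.21 without wildtype library 3, -0.04 without wildtype libraries 1 and 3 and -0.03 as the mean of both within-genotype differences. Their summed level was 2400 to 2676 CPM in the lower-share and 2182 to 2252 CPM in the higher-share libraries. Red blood cell genes (15 tested) had a median of -0.37, but of -0.03 within the knockout label, with a summed level of 2205 to 4364 CPM against 1708 to 2891 CPM and the embryonic globin gene Hbb-bh1 at 0 counts in every library. Spiral ganglion neuron genes (21 tested) had a median of 0.24 (0.08 without wildtype library 3 and 0.15 without wildtype library 2) with 0 members without overlap, and a summed level of 829 to 1118 CPM against 920 to 1215 CPM. Macrophage genes summed to 111 to 148 CPM against 115 to 129 CPM and endothelial genes to 474 to 558 CPM against 485 to 499 CPM. The part of these cell types in the differences between the sets was not tested.

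Between the genotype labels, the quasi-likelihood test of edgeR, adjusted by Benjamini-Hochberg, called 7 genes higher (0.034% of those tested) and 12 lower (0.0583%) in the libraries labelled knockout. Of these 19 genes, 0 were without overlap between the lncRNA share sets, against 8.17% higher and 9.4% lower of all tested genes. Each set holds both genotypes, so a gene that fully separates the genotypes cannot separate the sets, and nothing is read from this count. At an unadjusted p under 0.05, 980 genes were higher and 573 lower. Malat1 had a log2 fold change between genotypes of 0.35 with an adjusted p of 0.65, and the 3550 lncRNAs a median of 0.24 for the knockout label over wildtype; 3 of the 4 higher-share libraries carry that label. Of the tested lncRNAs, 0 were called higher and 2 lower, Gm13782 (from 14.3 to 18.1 CPM in the wildtype libraries, from 7.12 to 8.61 CPM under the knockout label) and Gm45645 (log2 fold change -2.23), both against the direction of the class.

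With the share set as a second factor in the fit, edgeR called 9 genes higher and 9 lower, 14 of the 19 among them. Those that no longer passed were Prox1 (log2 fold change 0.29 with the factor and 0.33 without, adjusted p = 0.0581 in edgeR's quasi-likelihood test), the phosphate transporter gene Slc20a1 (0.48 and 0.52), Arhgap27 (-0.41 and -0.50), Ccbe1, a secreted factor of lymphatic vessel growth (-1.26 and -1.26), and the polycystin gene Pkd2l1 (-0.91 and -1.05). Entering the lncRNA share itself in the fit gave 11 higher and 9 lower, with 16 of the 19 among them. In that fit Prox1 and Slc20a1 still passed (adjusted p = 0.0368 and 0.0459, edgeR's quasi-likelihood test), while Arhgap27, Ccbe1 and Pkd2l1 did not. The signs of the 5 genes named were the same in both of the fits compared here.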

How the data were processed

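Total RNA of 8 libraries of P0 mouse organ of Corti, 4 wildtype and 4 labelled Prox1 knockout, was isolated with RNeasy, depleted of ribosomal RNA and prepared with NEBNext Ultra II, per the labels' protocols. The authors deposited raw counts per gene, per the file headers. Per the submitters' processing notes reads were handled with HISAT2 (2.2.1), cutadapt (4.3), FastQC (0.12.1), featureCounts and DESeq2, on the build GRCm39. The annotation, whether counting used strand and how multiply mapped reads were counted are not given in the sources.

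From the counts, genes were filtered with filterByExpr (minimum count 10), scaled by TMM and expressed as CPM and as log2 CPM with a prior count of 2 (edgeR 4.0.16, R 4.3.3). Per library the counts total 29908965 to 42318233. The division of the libraries uses their own lncRNA share, so it was described by medians and counts of genes without overlap; genotype was tested with edgeR's quasi-likelihood test (Benjamini-Hochberg, threshold 0.05) and, for the lncRNA share, a two-sided exact permutation test. Alternatives were other scalings, filters and prior counts, DESeq2 1.42.0, the share set or the share as a term, the replicate number as a block, removal of gene classes and each library left out. Leaving out wildtype libraries 1 and 3 together, and the GENCODE lncRNA types, were alternatives chosen after the data were seen.

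The sets, gene lists and tests were chosen with earlier results of these data known. Gene classes and positions are by symbol from RefSeq (GRCm38.p6), and lengths, GC content (97.2% of tested protein-coding genes matched) and stem-loops from GENCODE M21 (GRCm38), both older than the authors' build. The genes named are Prox1 and Emx2, the 10 most abundant lncRNAs and the 5 others with the largest difference in share, up to 3 of the most abundant members of each class or list, and up to 12 protein-coding genes per direction with the largest difference; others are said to be chosen after their values were seen. Of the lncRNAs this rule selects, a single result is not reported here. Emx2 had 14.3 to 23.0 CPM. The genotype test was tried on simulated counts before use. Other deposited columns (group means and SDs, and the authors' DESeq2 comparison) were not used here.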

Additional observations from a re-analysis of the deposited data

Results flagged for a closer look

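Single libraries stood apart from the other 3 of their genotype in 5 of 106 groups of 4 libraries screened, by the gap to the nearest library over the range of the group. Chance flags about 1 in 20 such groups. Library 3 labelled knockout, which had the highest lncRNA share, held 1.64% of its counts in the 13 mitochondrial messenger RNAs, against 1.38 to 1.41% in the other libraries of that label. Wildtype library 3, which had the lowest lncRNA share, held 132 CPM of the lncRNA Gm33272 while wildtype libraries 1, 2 and 4 held 255 to 265 CPM. Wildtype library 2, the one wildtype library of higher share, held 12.3 CPM of Pkd1l1 against 5.97 to 6.90 CPM, and 53.5 CPM of S100b against 76.6 to 79.5 CPM. Wildtype library 4 held 37.6 CPM of Strip2 against 21.1 to 22.8 CPM. The 2 genes set apart in wildtype library 2 were named because they differ between the sets, so their values there are part of that choice.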

How the results depend on the processing

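The lncRNA median of 0.33 was 0.15 without a low-count filter, 0.24 to 0.39 with a library left out and 0.20 without wildtype libraries 1 and 3. The protein-coding median was 0.00061 with protein-coding scaling, and the microRNA median -0.033 with the stricter filter. Genes without overlap numbered 1940 to 2898 higher and 2213 to 3060 lower with a library left out, the most without wildtype library 4, and 2676 and 2953 without wildtype libraries 1 and 3, where fewer libraries have to separate. Genotype calls, 7 higher and 12 lower, were 11 higher with the lncRNA share as a covariate, 36 and 49 with DESeq2, 12 and 24 without a filter, and 2 to 7 and 8 to 20 with a library left out: 2 higher without wildtype library 1 or library 2 or 3 labelled knockout, 3 without wildtype library 3 or library 1 labelled knockout, and 20 lower without library 4 labelled knockout. With the replicate number as a block they were 3 and 12, 13 of the 19 among them. No pairing of samples by number was seen: the deviations of same-numbered libraries correlated at 0.111, 0.214, -0.275 and -0.137. These deviations also hold the differences in RNA composition between libraries, so a pairing is not excluded. Beside the lncRNA median without a filter and the protein-coding and microRNA values here, 18 medians of single classes, lists or all tested genes moved by more than the spread within sets. Causes were not tested.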
